A study of Mus musculus with 10 samples.

Results

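Agt, Sparc, Sparcl1, Timp4, Cst3 and Itih3 encode proteins that are secreted, in brain chiefly by astrocytes and by cells of the vessel wall. These 6 genes, of 23589 in the table, were chosen by name from earlier results of the same data, in which their regional difference in astrocyte nuclei was already seen. Their differences between regions in all nuclei and in astrocyte nuclei are therefore given as a description, with no test. Single nuclei were profiled by DroNc-seq, a droplet method in which each nucleus is captured with a barcoded bead and each transcript is tagged with a unique molecular identifier (UMI). The tissue was archived brain of C57BL/6 mice, frozen after dissection of the hippocampus and of a cortical region that the protocol names as prefrontal cortex. The labels name no treatment, genotype or age, and they do not tie libraries to animals. There were 10 libraries, 5 per region, and their titles carry numbers from 0 to 3. Number 0 was sequenced as a pair of libraries per region, 0a and 0b, whose counts were added, so that each region had 4 units. Since nothing says that units are separate animals, a p-value here covers unit-to-unit spread only, and part of that may be technical.

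The libraries held 11624 nuclei, 5658 from hippocampus and 5966 from cortex, with 1443244 to 2600788 UMIs per library and a median of 643.5 to 2732 UMIs per nucleus. Any pair of libraries shared at most 3 cell barcodes. Nuclei were clustered without the 6 genes, and a cluster was called by a cell type, followed by "-like", only from a list of marker genes that does not include the 6. All 13 astrocyte markers were higher in the astrocyte-like nuclei than in the other nuclei. The class was named by these markers, so this is no separate check of the name. The astrocyte-like class held 585 hippocampal nuclei (179, 161, 126 and 119 in numbers 0 to 3) and 154 cortical nuclei (76, 22, 20 and 36). This was 11.2% ± 3.23 of the nuclei of a hippocampal unit and 2.65% ± 1.97 of those of a cortical unit (mean ± SD over 4 units). A separate cluster with both astrocyte and excitatory neuron markers held 92 hippocampal and 267 cortical nuclei, 40.9% of them called as doublets, and stayed outside the class. Hippocampal number 0 stood apart, with 689 of its nuclei in an unnamed cluster led by mitochondrial transcripts, against 10 to 19 in the other hippocampal units. In 2 other unnamed clusters the regions also differed. The one led by Slc17a6 held 41 to 120 nuclei of each hippocampal unit and 2 to 10 of each cortical unit. The one led by Prkcd held 12 to 138 and 0. Glra1, Tfap2b and Tcf7l2 were among the leading genes of the former, and Ntng1, Shox2 and Tcf7l2 of the latter. Whether the hippocampal libraries held tissue from outside the hippocampus was not tested. Hippocampal nuclei here are nuclei of those libraries, and astrocyte-like ones from beside the hippocampus cannot be told apart.

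The products of these genes act outside the cell. Angiotensinogen, the product of Agt, is the precursor that renin and angiotensin-converting enzyme cut to angiotensin peptides, and astrocytes are its main source in brain. SPARC and the related SPARC-like 1 (hevin, from Sparcl1) are matricellular proteins. Hevin promotes the formation of excitatory synapses and SPARC counteracts it. Timp4 encodes an inhibitor of matrix metalloproteinases, Cst3 encodes cystatin C, an inhibitor of cysteine proteases such as the cathepsins, and Itih3 encodes a heavy chain of the inter-alpha-trypsin inhibitor family, which binds hyaluronan in the extracellular matrix.

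All 6 are protein-coding genes on the minus strand of the mouse assembly GRCm38 (mm10). Agt lies on chromosome 8 (124556534 to 124569706), Sparc on chromosome 11 (55394500 to 55423183), Sparcl1 on chromosome 5 (104079111 to 104113733), Timp4 on chromosome 6 (115241892 to 115252205), Cst3 on chromosome 2 (148871722 to 148875692) and Itih3 on chromosome 14 (30908572 to 30923760). The 250 bases before the start site were found in RefSeq (GRCm38.p6) for 5 of the 6 genes, and not for Sparcl1. They are shown for Agt and for Sparc, Timp4 and Itih3, the 3 members found most often beyond expectation in the same nuclei as Agt. The windows are chr8:124569707-124569956 (Agt), chr11:55420081-55420330 (Sparc), chr6:115252206-115252455 (Timp4) and chr14:30923588-30923837 (Itih3), read 5′ to 3′ on the minus strand. For Sparc and Itih3 the RefSeq start lies within the gene span given above, so these windows overlap it. Matches of the motifs searched, on either strand, are in capitals.
Agt: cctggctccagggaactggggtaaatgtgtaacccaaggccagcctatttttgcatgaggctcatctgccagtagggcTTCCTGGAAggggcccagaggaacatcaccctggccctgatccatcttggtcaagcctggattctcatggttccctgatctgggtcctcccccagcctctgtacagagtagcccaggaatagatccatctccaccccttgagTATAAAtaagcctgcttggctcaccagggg
Sparc: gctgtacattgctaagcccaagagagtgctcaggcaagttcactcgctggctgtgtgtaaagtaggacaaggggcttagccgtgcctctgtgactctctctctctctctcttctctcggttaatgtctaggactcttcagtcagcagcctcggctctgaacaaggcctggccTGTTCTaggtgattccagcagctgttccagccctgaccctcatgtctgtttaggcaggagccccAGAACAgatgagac
Timp4: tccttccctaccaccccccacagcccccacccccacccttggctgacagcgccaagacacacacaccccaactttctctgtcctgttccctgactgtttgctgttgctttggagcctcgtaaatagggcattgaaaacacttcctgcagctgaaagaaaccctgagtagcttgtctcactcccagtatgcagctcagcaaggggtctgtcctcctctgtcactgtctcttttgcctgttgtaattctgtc
Itih3: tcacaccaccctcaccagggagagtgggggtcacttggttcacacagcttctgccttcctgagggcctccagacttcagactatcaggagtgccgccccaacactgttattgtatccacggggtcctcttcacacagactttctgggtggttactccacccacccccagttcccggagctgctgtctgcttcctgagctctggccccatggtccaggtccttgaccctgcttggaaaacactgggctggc

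The core promoter element searched, known as the TATA box, was TATAAA. The STAT element was TTCNNNGAA, the SOX element was ACAAAG, the single-site element of the glucocorticoid receptor was TGTTCT, and the palindrome of nuclear factor I was also searched. None of their matches in these windows overlapped another motif. Agt held a TATA box at 30 to 25 bases before its start and a STAT element at 172 to 164 bases before it. Of 32851 promoter windows of the same length, 12.4% held the TATA box and 7.02% the STAT element. Sparc held the receptor element at 78 to 73 and at 14 to 9 bases before its start, and 16.1% of windows held it. Cst3 (not shown) held it also, in 2 places. Timp4 and Itih3 held none of the 5 motifs, of which the SOX element stood in 16.5% of windows and the palindrome in 0.0365%. The Agt window held 0 CpG dinucleotides, Timp4 2, Itih3 3, Sparc 4 and Cst3 8, against a median of 6 over all windows (quartiles 2 and 16).

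The UMIs of Agt, Itih3, Timp4 and Cst3 lay mostly in astrocyte-like nuclei in the hippocampus, and those of Sparc lay mostly in endothelial-like nuclei in both regions. In hippocampus, astrocyte-like nuclei held 75.6% of 307 Itih3 UMIs, 75.1% of 445 Agt UMIs, 63.1% of 160 Timp4 UMIs, 59.97% of 9416 Cst3 UMIs, 38.9% of 7462 Sparcl1 UMIs and 16.9% of 1693 Sparc UMIs. In cortex, with fewer such nuclei, they held 44.4% of 160 Itih3 UMIs, 34.6% of 26 Agt UMIs, 22.2% of 5364 Sparcl1 UMIs, 19.9% of 4359 Cst3 UMIs, 18.6% of 70 Timp4 UMIs and 1.89% of 1324 Sparc UMIs. Endothelial-like nuclei held 63.6% of Sparc UMIs in hippocampus and 84.2% in cortex. In all nuclei together, fewer astrocytes and less RNA per astrocyte cannot be told apart.

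**Figure D1:**
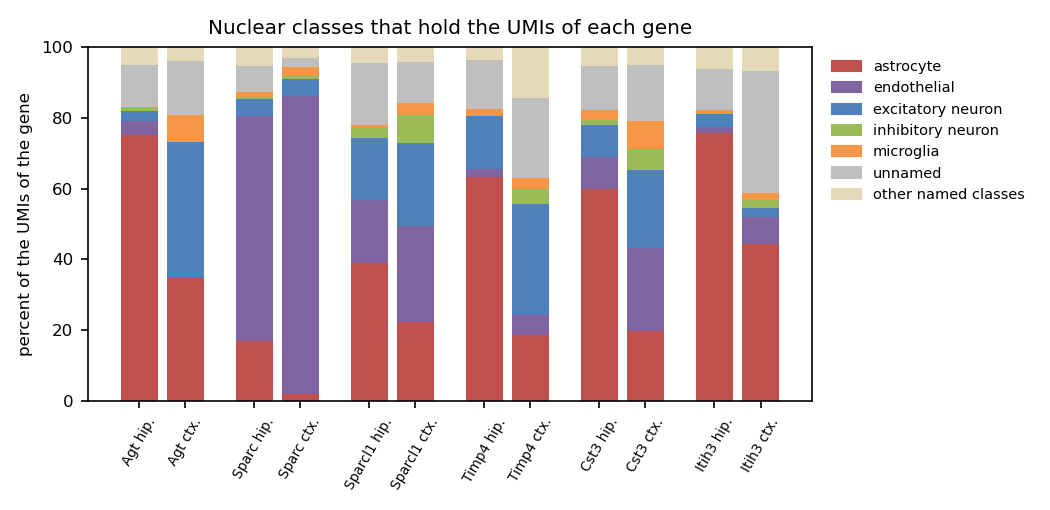
The share of the UMIs of each gene (vertical axis, percent) that lay in each nuclear class, in hippocampus (hip.) and cortex (ctx.). Astrocyte-like nuclei take 75.1% of hippocampal Agt UMIs, while endothelial-like nuclei take 63.6% and 84.2% of Sparc UMIs.

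Levels were taken as UMIs scaled to a total of 1000000 for the class (CPM), per unit with at least 20 nuclei of it. They are compared within a gene only, since transcript length and priming differ between genes. Classes were made from the same nuclei, so the order of classes is described with no test. Agt was highest in astrocyte-like nuclei in hippocampus. In cortex it was at 24.3 ± 18.0 CPM there (SD, n = 4 units), with 1 unit at 0 that overlapped the other classes, and the limits that 0 UMIs allow (3 counts) for 19 oligodendrocyte-like and 19 mural-like nuclei, 96.1 and 92.0 CPM, were above it. Its hippocampal level was 490 ± 121 CPM there (SD, n = 4 units), against 36.8 ± 48.9 CPM in endothelial-like, 16.2 ± 12.9 in oligodendrocyte-like, 10.1 ± 14.01 in inhibitory neuron-like and 3.41 ± 2.12 in excitatory neuron-like nuclei (each n = 4 units). The astrocyte-like units lay apart from those of the other 4 classes, whose spreads overlapped with each other. Ependymal-like nuclei, with no unit of 20 nuclei, gave 7 Agt UMIs in 52 nuclei, or 116 CPM with a 95% Poisson interval of 46.5 to 238. In cortex no Agt UMI was seen in 187 endothelial-like nuclei, with a limit of 3.86 CPM from 3 counts, or in 598 inhibitory neuron-like nuclei, with a limit of 2.60 CPM. Intervals and limits cover counting error only.

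Sparc was highest in endothelial-like nuclei, at 1858 ± 370 CPM in hippocampus and 1431 ± 173 CPM in cortex (SD, n = 4 units each). Summed over units, this was 459% of the astrocyte-like level in hippocampus and 1764% in cortex. The mean mural marker score of the endothelial-like cluster was 0.779, where 1 is the cluster highest in each marker, and Rgs5, a pericyte gene, was among the genes that led it, so pericytes may be part of it. The small mural-like cluster, with 10 hippocampal and 19 cortical nuclei, held 2 and 5 Sparc UMIs. In hippocampus astrocyte-like nuclei followed, at 418 ± 92.3 CPM, with a like sum of 415 CPM from 22 UMIs in 53 meningeal fibroblast-like nuclei. Microglia-like nuclei were at 140 ± 13.0 CPM (n = 2 units). In cortex meningeal fibroblast-like nuclei were at 100 ± 6.58 CPM (n = 3 units), astrocyte-like nuclei at 72.1 ± 32.1 CPM and microglia-like nuclei at 48.0 ± 19.3 CPM (n = 4 units each), and neighbours in that order overlapped within their spread.

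Sparcl1 was highest in astrocyte-like nuclei, at 4623 ± 286 CPM in hippocampus and 4281 ± 1456 CPM in cortex, and endothelial-like nuclei followed at 2628 ± 308 and 2133 ± 489 CPM (SD, n = 4 units each). In hippocampus the lowest astrocyte-like unit (4305 CPM) was above the highest endothelial-like unit (2947 CPM), while in cortex the lowest astrocyte-like unit (2313 CPM) was inside the endothelial range (1430 to 2549 CPM). Ependymal-like nuclei gave a sum of 1834 CPM from 111 UMIs. Below these, precursor-like (580 ± 234 CPM), microglia-like (514 ± 244 CPM) and inhibitory neuron-like nuclei of hippocampus were not separable. Inhibitory neuron-like nuclei gave 493 ± 84.8 CPM in hippocampus and 389 ± 97.2 CPM in cortex, and excitatory neuron-like nuclei 347 ± 103 and 192 ± 44.7 CPM. Cst3 was likewise highest in astrocyte-like nuclei, at 9651 ± 2294 CPM in hippocampus and 2862 ± 214 CPM in cortex. It followed in endothelial-like nuclei at 1785 ± 311 and 1332 ± 72.3 CPM, and in microglia-like nuclei at 1410 ± 99.1 (n = 2 units) and 514 ± 108 CPM (n = 4 units). In hippocampus the endothelial-like and microglia-like units of Cst3 overlapped, and ependymal-like nuclei gave a sum of 1735 CPM. In cortex endothelial-like units lay above the microglia-like ones, and meningeal fibroblast-like nuclei were at 631 ± 243 CPM (n = 3 units).

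Timp4 and Itih3 were at low CPM in most classes outside the astrocyte-like one, but small classes left their levels loosely set. Itih3 was at 377 ± 79.9 CPM in hippocampal and 191 ± 99.9 CPM in cortical astrocyte-like nuclei. In the oligodendrocyte-like nuclei of hippocampus it was at 39.3 ± 20.2 CPM. The 19 cortical ones gave 3 Itih3 UMIs (96.1 CPM), and 52 ependymal-like nuclei gave 5 (82.6 CPM). Itih3 gave 0 UMIs in 118 hippocampal and 94 cortical nuclei of the oligodendrocyte precursor class, with limits of 21.3 and 15.2 CPM from 3 counts. Timp4 was at 168 ± 64.5 and 46.4 ± 42.6 CPM in astrocyte-like nuclei of hippocampus and cortex. It gave 0 UMIs in 297 hippocampal oligodendrocyte-like nuclei, with a limit of 12.004 CPM from 3 counts. In cortex its excitatory neuron-like nuclei held 22 of 70 UMIs at only 3.30 ± 1.10 CPM, since that class had 3998 nuclei.

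**Figure D2:**
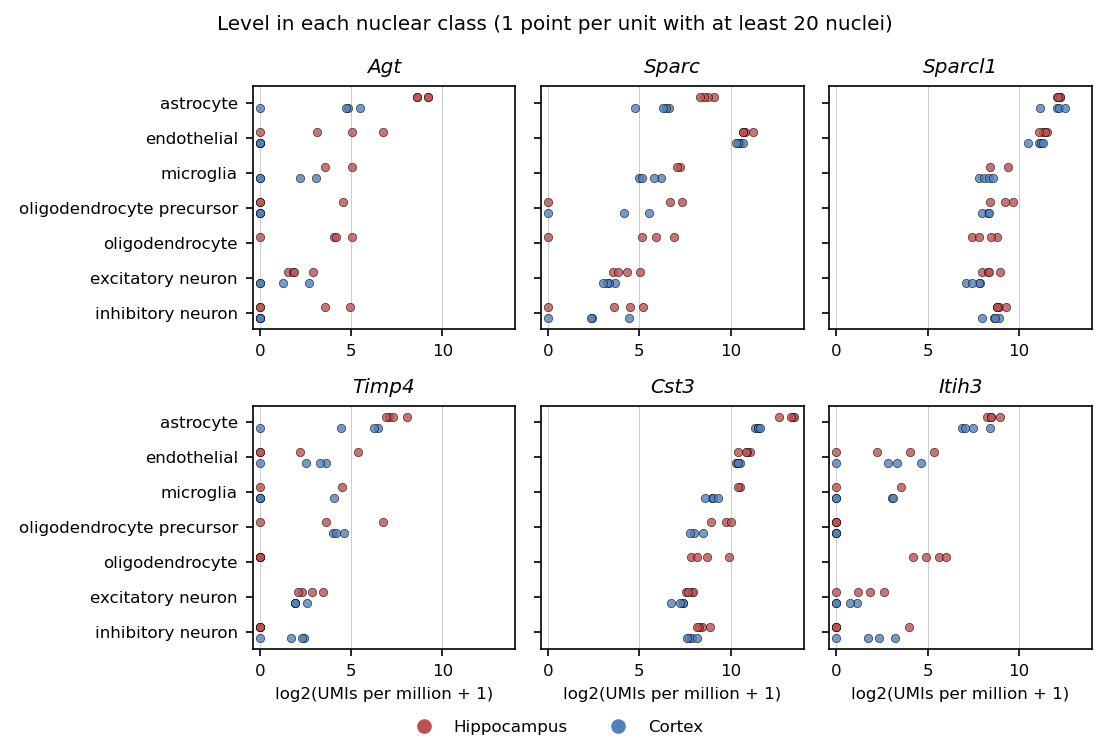
The level of each gene, as log2(CPM + 1) on the horizontal axis, in 7 nuclear classes, with 1 point per unit of at least 20 nuclei and red for hippocampus and blue for cortex. The endothelial points are the rightmost for Sparc, and the hippocampal astrocyte points are rightmost for Agt and Cst3.

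Free RNA from broken cells gives UMIs in droplets whose nucleus does not express a gene, so neuronal levels were set beside those of the 13 astrocyte markers. In hippocampal excitatory neuron-like nuclei the markers stood at a median of 1.29% of their astrocyte-like level (range 0.477% to 12.7%), and in cortical ones at 1.09% (0.392% to 9.76%). The 6 genes stood within these ranges in hippocampus, from 0.614% for Agt to 7.17% for Sparcl1. In cortex Sparc, at 11.7%, was above the range and Itih3, at 0.253%, was below it. In hippocampal inhibitory neuron-like nuclei Sparcl1 stood at 10.6%, above the marker range of 0% to 6.38% there. In cortical ones, where the markers ranged from 0.698% to 10.6%, Sparc stood at 11.7%, above the range, and Agt had no UMI. For Sparc this yardstick falls short, since endothelial-like nuclei held 63.6% of its UMIs in hippocampus and 84.2% in cortex. Astrocyte markers cannot gauge free Sparc RNA from those nuclei, so its place above the range is not read as neuronal. The cortical inhibitory neuron-like value of Sparc rests on 11 UMIs. Sparcl1 and Cst3 share this limit in part. In cortex endothelial-like nuclei held 1456 of 5364 Sparcl1 UMIs and 1017 of 4359 Cst3 UMIs, against 1193 and 866 in astrocyte-like nuclei. In hippocampus endothelial-like nuclei held 1328 of 7462 Sparcl1 UMIs and 839 of 9416 Cst3 UMIs. The free-RNA part of the neuronal values was not measured otherwise.

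In all nuclei, 5 of the 6 genes passed the threshold for a higher level in hippocampus, and 9.19% of 12855 tested genes did so. In this contrast the genes were chosen, so the count is not read as a result. Agt was at 56.6, 69.7, 40.9 and 32.3 CPM in hippocampal numbers 0 to 3 and at 1.36, 4.21, 1.26 and 2.92 CPM in the cortical ones, with no overlap. Its log2 difference, hippocampus minus cortex, was 4.41 ± 0.35 (edgeR estimate ± SE). Cst3 was at 910, 1421, 1244 and 1040 CPM in hippocampus and at 386, 342, 375 and 397 CPM in cortex, a difference of 1.61 ± 0.13.

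Sparcl1 was at 823, 962, 953 and 781 CPM in hippocampus and 387, 441, 508 and 584 CPM in cortex, and differed by 0.86 ± 0.13. Timp4 (12.3 to 27.7 against 2.94 to 10.9 CPM) and Itih3 (28.4 to 51.5 against 6.71 to 22.9 CPM) differed by 1.62 ± 0.36 and 1.49 ± 0.33. Sparc was at 270, 149, 90.8 and 162 CPM in hippocampus and 162, 76.2, 104 and 75.5 CPM in cortex, a difference of 0.68 ± 0.29, and its groups overlapped. In both regions number 0 was the highest unit for Sparc. The share of endothelial-like nuclei was highest in number 0 in cortex and in number 3 in hippocampus.

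Within astrocyte-like nuclei the order of the genes changed: Agt and Sparc differed most between regions and Sparcl1 least. Agt was at 600, 591, 384 and 387 CPM in hippocampal numbers 0 to 3, from 163, 88, 41 and 42 UMIs. In cortex it was at 28.0, 0, 25.7 and 43.6 CPM, from 4, 0, 1 and 4 UMIs. No hippocampal unit came near a cortical one, and the log2 difference was 4.11 ± 0.39. A cortical sum of 9 UMIs in 154 nuclei leaves the low level loosely set, with a 95% Poisson interval of 13.4 to 55.5 CPM around 29.3 CPM, against 470 to 585 CPM around 525 CPM in hippocampus.

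Sparc, a minor transcript of astrocytes beside its endothelial level, was at 537, 436, 375 and 322 CPM in hippocampal and 97.8, 88.4, 25.7 and 76.3 CPM in cortical astrocyte-like nuclei. Its difference was 2.46 ± 0.32, with no overlap. Summed endothelial markers in these astrocyte-like nuclei were at 141 to 213 CPM in hippocampus and 103 to 699 CPM in cortex. Of 11 endothelial markers, 1 had the higher mean in hippocampus, and none was at 0. Their part in the Sparc difference was not tested.

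Cst3 was at 6311, 11045, 11253 and 9996 CPM in hippocampal astrocyte-like nuclei and at 2593, 2859, 2882 and 3115 CPM in cortical ones. The lowest hippocampal unit was number 0, and it was still above all cortical units. The difference was 1.83 ± 0.22. Timp4 was at 136, 154, 263 and 120 CPM against 20.97, 88.4, 0 and 76.3 CPM, and differed by 1.96 ± 0.45 on 101 and 13 UMIs.

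Itih3 was at 302, 490, 356 and 359 CPM in hippocampus and 335, 118, 180 and 131 CPM in cortex, a difference of 0.86 ± 0.29, and cortical number 0 overlapped the hippocampal range. Without cortical number 0 the difference was 1.47 ± 0.32. Of its libraries, 0a gave 407 CPM and 0b 220 CPM. Sparcl1 was at 4305, 4912, 4811 and 4464 CPM in hippocampus and 2313, 4362, 4632 and 5817 CPM in cortex, with overlap and a difference of 0.19 ± 0.22. Cortical number 0, the highest cortical unit for Itih3, was the lowest for Sparcl1, and without it the difference was -0.04 ± 0.16. In all, 4 of the 6 genes (Agt, Sparc, Timp4 and Cst3) passed the threshold in astrocyte-like nuclei, where 2.64% of 2271 tested genes did so in this direction. The same 4 had no overlap between regions, as 4.14% of genes did. Both counts come from the contrast by which the genes were chosen.

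**Figure D3:**
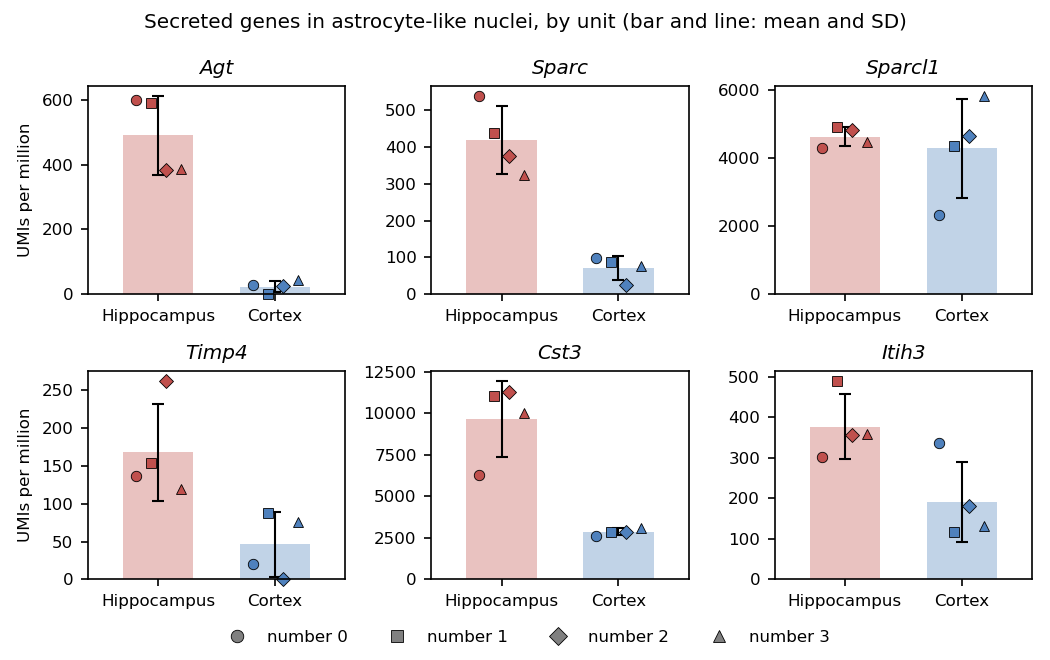
CPM in astrocyte-like nuclei (vertical axis, scaled for each gene) by region. Points are units, marked by title number, bars are means and lines are SDs of 4 units. Agt, Sparc, Timp4 and Cst3 have all hippocampal units above all cortical units, while Sparcl1 ranges from 2313 to 5817 in cortex around the hippocampal values.

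Other markers moved beside these differences. The 13 astrocyte markers summed to 23690 to 30465 CPM in hippocampal and 17679 to 21339 CPM in cortical astrocyte-like nuclei, and 12 of them had the higher mean in hippocampus. Summed excitatory neuron markers were at 792 to 1339 CPM in hippocampal and 1592 to 2007 CPM in cortical ones, and 2 of 9 had the higher mean in hippocampus. Summed choroid plexus markers were at 6.71 to 2381 against 0 to 21.8 CPM (5 of 7 higher by mean), oligodendrocyte markers at 1332 to 1966 against 664 to 1544 CPM (8 of 10) and meningeal fibroblast markers at 64.4 to 107 against 168 to 472 CPM (0 of 8). No marker of these lists was at 0 over the class. The astrocyte-like class also differed in make-up between regions. At a finer clustering (Leiden resolution 4.0), its cluster led by Slc1a3 and Gja1 held 473 hippocampal and 93 cortical nuclei. Its cluster led by Gfap and Aqp4 held 98 hippocampal and 62 cortical nuclei. The part of the markers and of this make-up in the regional differences was not tested. With the mixed astrocyte and excitatory cluster counted as astrocyte-like, an alternative added after the data were seen, the differences were 5.17 ± 0.30 for Agt, 3.32 ± 0.27 for Sparc, 2.64 ± 0.19 for Cst3 and 1.28 ± 0.20 for Sparcl1. In the mixed cluster itself Agt had 34 UMIs in 92 hippocampal nuclei and 4 UMIs in 267 cortical nuclei.

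Counted as nuclei with at least 1 UMI, Agt and Sparc were again seen more often in hippocampal astrocyte-like nuclei. Unthinned, 24.8% of hippocampal and 4.55% of cortical astrocyte-like nuclei had an Agt UMI, at median depths of 801 and 1549 UMIs. In excitatory neuron-like nuclei, a class taken to lack the transcript, the shares were 0.454% and 0.225%, at median depths of 1257 and 1263 UMIs. After each nucleus was thinned to 500 UMIs, which left out 33 hippocampal nuclei and 0 cortical ones, Agt was seen in 18.0% ± 3.27 of hippocampal and 2.24% ± 2.62 of cortical astrocyte-like nuclei (SD, n = 4 units each). Sparc was seen in 14.9% ± 1.87 and 3.63% ± 2.51 after thinning, and in 24.8% and 12.3% of all nuclei of the class before it. Itih3 went from 25.6% and 30.5% to 17.1% ± 2.53 and 8.16% ± 5.72, and the units of the regions overlapped. Thinned to 1000 UMIs, where 405 hippocampal and 18 cortical nuclei were left out, Itih3 was seen in 18.0% ± 8.10 (SD, n = 4 units) and 17.4% ± 11.8 (SD, n = 2 units), so no order of regions is read from its shares. At 1000 UMIs Agt was seen in 20.8% ± 4.03 and 2.94% ± 0.12 of nuclei, and Sparc in 22.97% ± 4.33 and 12.5% ± 0.52, over the same units. Timp4 went from 14.2% and 5.84% to 7.56% ± 1.67 and 3.55% ± 3.72, which overlapped. Cst3 went from 95.2% and 92.9% to 91.2% ± 6.13 and 77.0% ± 4.88. Sparcl1 went from 89.2% and 95.5% to 77.7% ± 5.15 and 77.2% ± 13.4, which overlapped. Agt was also uneven among hippocampal nuclei: 440 of 585 had no UMI, 79 had 1, 34 had 2 and 32 had 3 or more, with a maximum of 37. Sparc had a maximum of 33 UMIs in a nucleus, while Timp4 had a maximum of 3.

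In excitatory neuron-like nuclei the 3 members that passed the count filter were tested, and all 3 were higher in hippocampus. The contrast of this class alone did not serve to choose the genes, but its nuclei were part of the all-nuclei contrast. These tests, and those in inhibitory neuron-like and endothelial-like nuclei below, are thus not independent of the choice. In this class 8.68% of 10938 tested genes were higher. Sparcl1 was at 250, 315, 492 and 331 CPM in hippocampal numbers 0 to 3 and at 139, 233, 225 and 172 CPM in cortical ones, with no overlap. It rose by 0.88 ± 0.20 on the log2 scale (edgeR quasi-likelihood test, adjusted p = 0.0088). Cst3 was at 187, 236, 248 and 205 CPM against 107, 166, 164 and 150 CPM, again with no overlap, and rose by 0.61 ± 0.15 (edgeR, adjusted p = 0.0147). No overlap in this direction was found for 9.86% of tested genes. The Cst3 call was lost without hippocampal number 1 (edgeR, adjusted p = 0.059) and without hippocampal number 2 (edgeR, adjusted p = 0.0625).

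Sparc was at 31.3, 19.0, 10.6 and 13.1 CPM in hippocampal and 11.8, 8.95, 8.25 and 7.07 CPM in cortical excitatory neuron-like nuclei, with overlap, and rose by 1.10 ± 0.33 (edgeR, adjusted p = 0.0365). The Sparc call rests on few UMIs, 8 to 49 per unit, and was lost in 9 of 17 alternatives. Without hippocampal number 0, the highest unit, the difference was 0.65 ± 0.33 (edgeR, adjusted p = 0.188). It was also lost without hippocampal number 1 and without cortical number 1, 2 or 3 (edgeR, adjusted p = 0.0807 to 0.0947). Summed endothelial markers in these nuclei were at 49.4 to 185 CPM in hippocampus and 59.2 to 137 CPM in cortex, with 5 of 11 higher in hippocampus by mean, and their part in the result was not tested. Summed astrocyte markers were at 659 to 943 CPM in hippocampus and 564 to 848 CPM in cortex, with 9 of 13 higher by mean. Oligodendrocyte markers were at 390 to 444 against 201 to 214 CPM, with 9 of 10 higher by mean. Choroid plexus markers were at 19.8 to 275 against 1.37 to 3.95 CPM, with 5 of 7 higher by mean. No marker of these lists was at 0, and their part in the regional differences was not tested.

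The excitatory class differed in part in its clusters between regions. Sparcl1 was at 546 CPM in the 1191 hippocampal nuclei of the cluster led by Prox1 and C1ql2, genes of dentate granule neurons, and at 142 CPM in the 558 hippocampal nuclei of the cluster led by Mndal and Ttn. Cortical nuclei lay almost all in 7 other clusters, at 119 to 265 CPM. The hippocampal nuclei of these, 48 to 195 per cluster, were at 117 to 382 CPM. All 7 held more cortical than hippocampal nuclei, with Cux2, Rorb, Syt6 and Fezf2 among their leading genes. Whether their hippocampal nuclei came from the hippocampus or from tissue beside it was not tested. Sparcl1 was at the higher level in the hippocampal nuclei in 6 of these 7 clusters (for example 376 against 233 CPM) and Cst3 in all 7 (for example 375 against 197 CPM), as sums over units with no test. A finer clustering (Leiden resolution 4.0) left 193 to 442 hippocampal nuclei per unit in the class in place of up to 795. Clusters of 670 and 515 hippocampal nuclei with Prox1 and C1ql2 among their leading genes were unnamed there, and so outside the class. With this class the Sparcl1 difference was 0.22 ± 0.22 (edgeR, adjusted p = 0.70) and that of Cst3 was 0.51 ± 0.17 (edgeR, adjusted p = 0.10). Summed astrocyte markers in the Prox1 cluster were at 829 CPM, and in the Mndal cluster at 685 CPM. In each of the 7 shared clusters these markers were also at the higher level in the hippocampal nuclei. In the clusters given as examples they were at 709 against 540 CPM (Sparcl1 example) and 1013 against 637 CPM (Cst3 example). Whether the markers bear on the Sparcl1 and Cst3 values was not tested.

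In inhibitory neuron-like nuclei, where 0.123% of 4887 tested genes were higher in hippocampus, neither tested member passed. Cst3 was at 349, 461, 309 and 289 CPM in hippocampus and 210, 232, 288 and 196 CPM in cortex, a difference of 0.64 ± 0.21 (edgeR, adjusted p = 0.214). The groups did not overlap, as in 2.03% of tested genes. Sparcl1 differed by 0.40 ± 0.20 (edgeR, adjusted p = 0.623), with 439 to 618 CPM in hippocampus and 254 to 485 CPM in cortex. A difference was not detectable for either gene at this depth, from 209 hippocampal and 598 cortical nuclei. At a coarser clustering (resolution 1.0), the Sparcl1 difference was 0.64 ± 0.18 (edgeR, adjusted p = 0.0453). Hippocampal units there grew from 40 to 60 nuclei to 98 to 172, and the cortical ones stayed at 141 to 163. The larger inhibitory neuron-like cluster at this resolution held 484 hippocampal and 416 cortical nuclei, and no cluster led by Slc17a6 stood apart. At the main resolution the unnamed cluster led by Slc17a6 held 359 hippocampal and 30 cortical nuclei, with Sparcl1 at 620 CPM. The part of such nuclei in the Sparcl1 call was not tested.

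Endothelial-like nuclei, the main site of Sparc, numbered 177 in hippocampus and 187 in cortex, and 1.15% of 2968 tested genes were higher in hippocampus. None of the 3 members tested passed. Sparc was at 2404, 1768, 1614 and 1646 CPM in hippocampal and 1464, 1654, 1359 and 1247 CPM in cortical units, which overlapped. Its difference was 0.36 ± 0.17 (edgeR, adjusted p = 0.316). Sparcl1 differed by 0.28 ± 0.16 (edgeR, adjusted p = 0.471) and Cst3 by 0.38 ± 0.16 (edgeR, adjusted p = 0.275). Whether the regional difference of Sparc itself differs between endothelial-like and astrocyte-like nuclei was not tested. For Cst3 the fit of numbers 1 to 3 gave 0.49 ± 0.14 (edgeR, adjusted p = 0.0373).

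**Figure D4:**
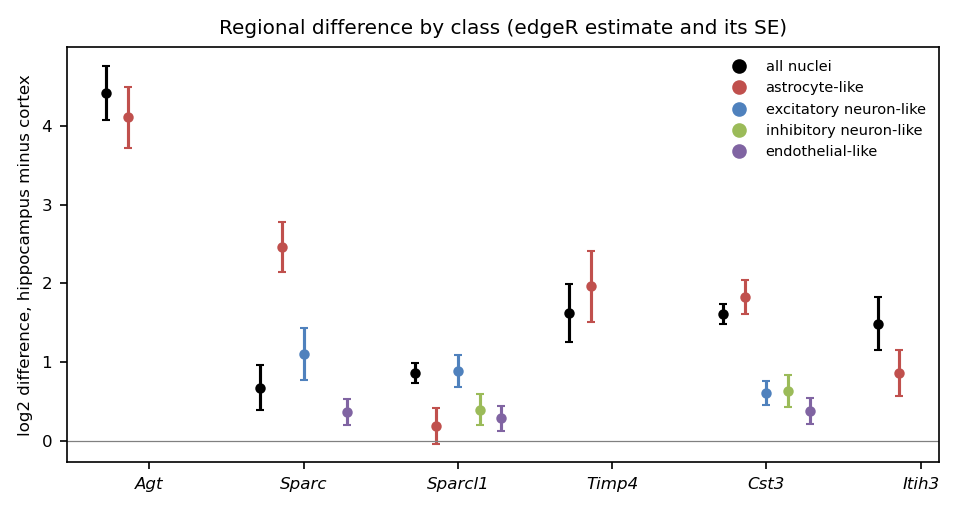
The log2 difference between regions (vertical axis, hippocampus minus cortex, edgeR estimate with its SE) for each gene and class in which it passed the count filter. Agt has the largest values, 4.41 in all nuclei and 4.11 in astrocyte-like nuclei, and for Sparc the astrocyte value of 2.46 stands beside an endothelial value of 0.36.

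In hippocampal astrocyte-like nuclei, Agt, Sparc, Timp4 and Itih3 occurred together in the same nuclei more often than their separate shares gave. The expected number was taken within each unit and within 3 bins of nuclear depth, and ratios are given with no test. Agt and Sparc, each seen in 145 of 585 nuclei, were both seen in 62 nuclei against 37.6 expected, a ratio of 1.65, with 1.31 to 1.79 over the 4 units. Agt and Itih3 were both seen in 64 nuclei against 38.6 (1.66, with 1.46 to 2.00), and Agt and Timp4 in 37 against 20.7 (1.79, with 1.61 to 1.93). All 4 units lay above 1 for these 3 pairs.

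Sparc and Itih3 had a ratio of 1.501, with units from 0.90 to 2.16. Timp4 and Itih3 had 1.45, with units from 0.89 to 1.72, and Sparc and Timp4 had 1.31, with units from 1.16 to 1.61. The abundant genes stood near 1: Agt with Sparcl1 at 1.08 and with Cst3 at 1.03. Sparcl1 and Cst3 were seen in 89.2% and 95.2% of nuclei, which leaves a ratio little room to rise. In cortex only 7 of 154 nuclei had an Agt UMI, too few to describe unit by unit.

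The hippocampal astrocyte-like nuclei with an Agt UMI had a median of 842 UMIs, and those without one had 785. In the 145 with Agt, Sparc was at 914 CPM (382 to 1142 over units), against 243 CPM (200 to 303) in the 440 without, and these ranges did not overlap. Itih3 was at 587 against 266 CPM, Timp4 at 250 against 118 CPM and Sparcl1 at 5901 against 3962 CPM. Cst3 went the other way, at 6805 CPM (5115 to 10469) with Agt and 9801 CPM (6976 to 12821) without, with overlapping ranges.

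Other genes, chosen after the data were seen, describe the Agt-positive nuclei further. Slc6a11, the GABA transporter GAT-3, was found with Agt in 69 nuclei against 40.1 expected (ratio 1.72, with 1.35 to 2.26 over units), with Itih3 at a ratio of 1.76 and with Sparc at 1.52. Slc7a10, an amino acid transporter of astrocytes, had a ratio of 1.30 with Agt and 1.25 with Itih3. Gfap, the intermediate filament of fibrous and reactive astrocytes, had a ratio of 0.95 with Agt (0.86 to 1.21) and of 0.77 with Itih3 (0.55 to 1.05). In the 185 hippocampal nuclei with Gfap, Itih3 was at 200 CPM and Sparcl1 at 5968 CPM, and in the 400 without it at 483 and 3550 CPM. The median depths of these nuclei were 1011 and 734 UMIs. Lhx2, a forebrain transcription factor, had its highest ratio with Timp4, at 1.78, from only 11 nuclei (1.43 to 2.31).

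**Figure D5:**
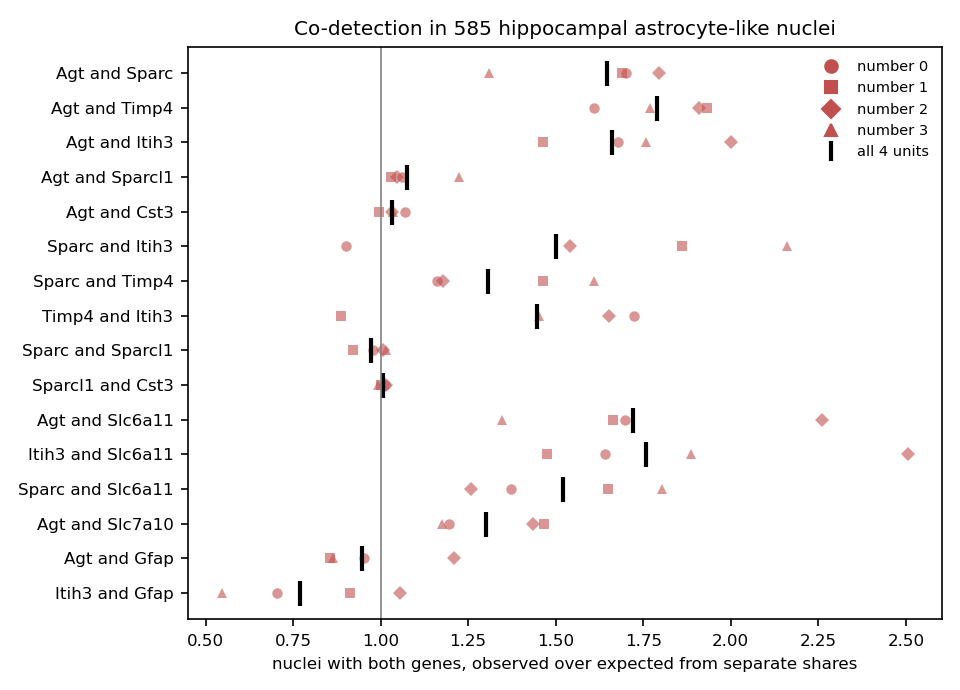
Observed over expected number of hippocampal astrocyte-like nuclei with both genes of a pair (horizontal axis), with expected numbers taken within units and 3 bins of depth. Points are the 4 units, marked by title number, and black bars the sum of units. The 3 pairs of Agt with Sparc, Timp4 and Itih3 lie above 1 in every unit, and Agt with Gfap lies around 1.

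Genes whose levels followed those of a member over 17 sums of a region and a class were sought among 12346 genes. The measure is Pearson's r of log2(CPM + 1), and the 17 points share libraries, depth and free RNA. For Agt these were Fam213a (0.87), Psap (0.86), Pcx (0.86), Clu (0.82) and Cyp4f13 (0.82). For Sparc they were Txnip (0.93), H2-K1 (0.92) and Clic1 (0.92), and for Sparcl1 they were Gstm1 (0.93), S1pr1 (0.92) and Prex2 (0.92). For Cst3 they were Lfng (0.95), Gja1 (0.93), a gap junction gene that was also an astrocyte marker here, and Rapgef3 (0.92). For Itih3 they were Slc39a12 (0.94), Phkg1 (0.94) and Pts (0.93), and for Timp4 they included Nek8 (0.81) and Ptpmt1 (0.75). Among the members, r was highest for Sparcl1 with Cst3 (0.86) and lowest for Sparc with Timp4 (0.28).

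The genes that act with these proteins were counted in lists that leave out the members. Of the renin-angiotensin list, 10 of 18 genes could be tested in all nuclei, of which 1 was higher and 1 lower in hippocampus. Of all tested genes, 9.19% were higher and 8.53% lower. The median difference of the list was 0.08, against -0.01 over all tested genes. Mas1, the receptor of angiotensin 1-7, was at 24.9 against 15.2 CPM and rose by 0.67 ± 0.22 (edgeR, adjusted p = 0.0474), and Nln, a peptidase, fell by 0.67 ± 0.17 on the log2 scale (edgeR, adjusted p = 0.0159). Atp6ap2, the prorenin receptor, differed by 0.20 ± 0.15 and the peptidase gene Thop1 by -0.22 ± 0.14. In excitatory neuron-like nuclei Mas1 rose by 1.13 ± 0.23 (edgeR, adjusted p = 0.00388). In astrocyte-like nuclei only Atp6ap2 of this list passed the count filter, with 0.53 ± 0.32 (edgeR, adjusted p = 0.42).

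Of the SPARC family and its ligands, 2 of 14 tested genes were higher in all nuclei and 0 lower (median 0.10), where 9.19% of all tested genes were higher. These were Spock3, a proteoglycan of the family, with 1.00 ± 0.20 (edgeR, adjusted p = 0.0033), and Vcam1, a receptor of SPARC, with 1.08 ± 0.24 (edgeR, adjusted p = 0.00672). Smoc1 differed by 0.77 ± 0.38 and Itgav by -0.30 ± 0.15. In astrocyte-like nuclei 0 of 5 tested genes of this list passed. Vcam1 was at 154 against 68.0 CPM there (1.20 ± 0.41, edgeR, adjusted p = 0.078), and Spock2 was at 73.3 against 144 CPM (-0.78 ± 0.35). Itgav differed by -0.26 ± 0.38.

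Among metalloproteinases and their inhibitors, 0 of 13 tested genes passed in all nuclei (median 0.12). The inhibitor Timp2 differed by 0.33 ± 0.11 (edgeR, adjusted p = 0.051), Timp3 by 0.45 ± 0.20, and the proteases Adamts4 by 1.34 ± 0.49 and Adamts1 by 0.79 ± 0.32. In astrocyte-like nuclei Timp3 was at 444 against 288 CPM (0.76 ± 0.27, edgeR, adjusted p = 0.101). Adam10 differed by 0.30 ± 0.36, and neither of the 2 tested genes passed. Among cystatins and cathepsins, 0 of 13 passed in all nuclei (median 0.26) and 0 of 7 in astrocyte-like nuclei (median 0.24). Ctsl differed by 0.42 ± 0.15 in all nuclei (edgeR, adjusted p = 0.0714), Cstb by 0.45 ± 0.17, Ctsb by 0.32 ± 0.14 and Ctsk by -0.85 ± 0.39. In astrocyte-like nuclei Ctsd, a lysosomal protease, differed by 0.63 ± 0.27 (edgeR, adjusted p = 0.206), Ctsf by 0.39 ± 0.32, Ctsl by 0.39 ± 0.31 and Ctsa by 0.24 ± 0.33.

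Of the inter-alpha-trypsin inhibitor and hyaluronan matrix list, 5 of 9 tested genes were higher in all nuclei and 0 lower (median 0.61). Among all tested genes 9.19% were higher. Hapln2, a link protein of the nodes made by oligodendrocytes, was at 91.5 against 29.8 CPM and rose by 1.603 ± 0.14 (edgeR, adjusted p = 1.64e-05). Vcan, Bcan and Tnfaip6 rose by 0.61 ± 0.14, 0.85 ± 0.21 and 0.96 ± 0.24. The hippocampus had 297 oligodendrocyte-like nuclei and the cortex 19, and an unnamed cluster led by Mag and Hapln2 held 48 to 74 nuclei of each hippocampal unit and 22 to 66 of each cortical unit. The part of these counts in the Hapln2 difference was not tested. In astrocyte-like nuclei 0 of 3 passed. Bcan was there at 1672 against 1466 CPM (0.22 ± 0.22), Hapln1 at 153 against 111 CPM (0.46 ± 0.34) and Ncan at 389 against 468 CPM (-0.22 ± 0.27).

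Of 15 other genes of secreted astrocyte proteins tested in all nuclei, 9 were higher in hippocampus and 0 lower (median 0.59). Of all tested genes, 9.19% were higher. Astrocyte-like nuclei made up 11.2% of the nuclei of a hippocampal unit and 2.65% of those of a cortical unit by mean. The part of these shares in the differences over all nuclei was not tested. Il33, Pla2g7, Lcat and Clu rose by 2.14 ± 0.27, 1.87 ± 0.21, 1.48 ± 0.25 and 1.34 ± 0.17. In astrocyte-like nuclei, where 2.73% of tested genes were lower, 3 of 10 were higher and 1 lower. Pla2g7 was at 1584 against 696 CPM (1.31 ± 0.24, edgeR, adjusted p = 0.000669). Clu, encoding clusterin, was at 4714 against 2093 CPM (1.24 ± 0.23, edgeR, adjusted p = 0.000669). Scg3 rose by 0.83 ± 0.23 (edgeR, adjusted p = 0.0275). Ptgds, encoding a prostaglandin D synthase, was at 241 against 1558 CPM and fell by 2.52 ± 0.29 on the log2 scale (edgeR, adjusted p = 1.28e-07). Summed meningeal fibroblast markers in these nuclei were at 64.4 to 107 CPM in hippocampus and 168 to 472 CPM in cortex, with 0 of 8 higher in hippocampus and none at 0, and their part in the Ptgds value was not tested.

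In excitatory neuron-like nuclei, where 8.68% of tested genes were higher and 7.39% lower, the same lists gave calls in both directions. Of the metalloproteinase list 2 of 11 tested genes were higher and 1 lower. Of the renin-angiotensin list 1 of 7, of the SPARC list 1 of 12 and of the other secreted proteins 1 of 12 passed in each direction, and of the hyaluronan matrix list 1 of 5 was higher and 0 lower. Adamts1, a secreted metalloproteinase, rose by 2.21 ± 0.35 (edgeR, adjusted p = 0.000706), and Timp2 fell by 0.67 ± 0.18 on the log2 scale (edgeR, adjusted p = 0.0192). Bcan, Spock3 and Gpc4 rose there, Itgav, Nln and Ptn fell, and no cystatin or cathepsin passed. In endothelial-like nuclei, where 2.12% were lower, Ptn rose by 0.62 ± 0.17 (edgeR, adjusted p = 0.0387), and 1 of 5 tested genes of the SPARC list was lower. In inhibitory neuron-like nuclei, where 0.143% were lower, no gene of the lists passed. The genes of these classes were named because they passed, after their values were seen.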

How the data were processed

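Single-nucleus RNA was measured in 10 libraries of 2 mouse brain regions. The authors deposited a table of UMI counts per gene and nucleus, with no normalization. STAR, Seurat and the genome build mm10 are named per the submitters' processing notes. Other counting steps are not given in the sources used here. A set of 1689 columns matched no sample label and was not used. The 6 members and the gene lists were chosen with earlier results of these data known.

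Clustering left out the 6 members and used scanpy 1.11.5 with leidenalg 0.10.2. Counts were scaled to 10000, log-transformed, limited to genes seen in at least 10 nuclei, and reduced to 2000 variable genes (scaled, maximum 10), 40 components, 20 neighbours and Leiden resolution 2.0. A cluster was named when its mean marker score was at least 0.4, ahead of the next by 0.15, with 3 markers at 0.5 or more. It stayed unnamed with 3 or more mitochondrial genes among its top 10, or with more markers of another class there. The table had been read before these limits were chosen, and cell type names rebuilt this way can depart from the study's own. Doublet scores came from simulated pairs and 30 neighbours (share over 0.8), which called 10.4% of nuclei. Called nuclei were kept, except in 1 alternative. No correction was made for free RNA.

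UMIs were summed per unit and class, and regions were compared with edgeR 4.0.16 in R 4.3.3 (quasi-likelihood test, TMM, filterByExpr, Benjamini-Hochberg over all tested genes, threshold 0.05). The SE is the log2 estimate over the root of its F value. The procedure was tested on simulated data. Thinning drew 500 UMIs per nucleus. List genes named were the 4 with the smallest p per list in all nuclei and in astrocyte-like nuclei, and exceptions are stated. Some genes that these rules name are not reported here. Positions are from GENCODE M21 and promoter letters from RefSeq. Intervals are exact. Alternatives used DESeq2 1.42.0, other scaling, filters, clusterings and left-out units.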

Additional observations from a re-analysis of the deposited data

Results flagged for a closer look

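Timp4 in cortical excitatory neuron-like nuclei had 1 unit far from the others. Number 3 was at 4.95 CPM, and the other 3 units lay between 2.75 and 2.76 CPM, so that the gap to the nearest unit was 0.993 of the whole range. The 4 units held only 22 Timp4 UMIs in all, and Dixon's limit takes no account of counting error. Of 45 sets of 4 units looked at, 1 passed Dixon's 95% limit, which chance passes in about 1 of 20 sets.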

How the results depend on the processing

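Genes past the threshold in either direction numbered 2278 in all nuclei, 122 in astrocyte-like, 1757 in excitatory neuron-like, 13 in inhibitory neuron-like and 97 in endothelial-like nuclei. With numbers 1 to 3 only, these were 4128 in all nuclei, 293 in astrocyte-like, 3460 in excitatory and 135 in inhibitory neuron-like nuclei. With DESeq2 they were 79 in astrocyte-like, 5 in inhibitory neuron-like and 45 in endothelial-like nuclei. With doublet calls removed they were 33 in astrocyte-like nuclei, where 2 cortical units fell under 20 nuclei and dropped out, 1 in inhibitory neuron-like and 4 in endothelial-like nuclei. With no filter on low counts they were 55 in inhibitory neuron-like and 217 in endothelial-like nuclei, and with relative log expression scaling 7 in inhibitory neuron-like nuclei. Resolution 1.0 gave 960 in astrocyte-like and 234 in inhibitory neuron-like nuclei and left no endothelial-like cluster, and resolution 4.0 gave 531 in excitatory neuron-like nuclei. The mixed cluster, added to the astrocyte-like class after the data were seen, gave 989. Leaving out 1 unit gave 1570 to 3094 in all nuclei, 48 to 214 in astrocyte-like, 1138 to 2525 in excitatory neuron-like, 2 to 101 in inhibitory neuron-like and 10 to 148 in endothelial-like nuclei. The causes of these shifts were not tested.

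In all nuclei, equal title numbers correlated across regions at 0.43 for number 0 and at 0.017 to 0.097 for numbers 1 to 3. The units of number 0 thus deviated together in both regions, which the main fits do not model. Units were not paired there, since nothing ties equal numbers to an animal. With the number as a replicate block the counts were 3086, 90, 2638, 54 and 170, in the order above.

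The log2 difference of Sparcl1 in astrocyte-like nuclei ranged from -0.037 (without cortical number 0, a reversal) to 1.31 over 18 alternatives. When 1 unit was left out, its highest value was 0.39. The other member differences kept their sign in every alternative: Agt in astrocyte-like nuclei ranged from 3.67 to 5.198, Sparc from 2.12 to 3.47, Cst3 from 1.69 to 2.68, Timp4 from 1.49 to 2.54 and Itih3 from 0.64 to 1.79. In excitatory neuron-like nuclei 13 of 51 refits of the 3 members ended a call, 9 of them for Sparc. Cortical Agt and Timp4 in astrocyte-like nuclei rest on 9 and 13 UMIs.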
